A study of Mus musculus with 27 samples.

Results

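Lcn2, Saa1, Saa2, Saa3, Pigr, Hp and Ltf were followed as a set of acute-phase and mucosal defence genes. They were chosen by symbol, 7 genes out of 22524 in the count tables, and all 7 were matched. Pigr was the abundant member in organoids and was higher in the libraries labelled untreated in all 9 cultures. Lcn2 was the abundant member in m-ICc12 cells and differed by label there. Saa3 separated the labels in SPF organoids at a low level, and Hp, Saa1 and Saa2 were high in 1 organoid library and 1 MEF library that also held albumin transcripts.

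The acute-phase response is a change in the secreted proteins of liver and barrier epithelia that follows inflammatory cytokines. Lcn2 encodes lipocalin 2, which binds bacterial siderophores and so withholds iron, and Ltf encodes lactoferrin, an iron-binding protein of milk, mucosal secretions and neutrophil granules. Saa1, Saa2 and Saa3 encode serum amyloid A proteins, apolipoproteins that hepatocytes release in large amounts (Saa1 and Saa2) or that epithelia, macrophages and adipose tissue make locally (Saa3). Hp encodes haptoglobin, a plasma protein that captures free haemoglobin. Pigr encodes the polymeric immunoglobulin receptor, which carries dimeric IgA across the gut epithelium into the lumen.

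The organoids were grown from crypts of the distal jejunum of male C57BL/6J wild-type mice aged 8 to 12 weeks, with 3 mice from each of 3 facilities, of which SR and SE were SPF and GF was germ-free. Each of these 9 cultures gave 1 library labelled untreated and 1 labelled TNF (5 ng per mL for 8 h), as did 3 cultures of the line m-ICc12, which is immortalised small intestinal epithelium of the mouse and was grown in a medium with dexamethasone. Mouse embryonic fibroblasts (MEF) of C57BL/6 mice gave 3 libraries, all labelled untreated. GF status and the facility cannot be told apart, since all GF cultures came from 1 facility, and the mice within each facility were littermates kept together. The 27 libraries held 6071103 to 43843615 counts on genes, and 3 counts, taken as the detection floor, were worth 0.0657 to 0.523 CPM, the counts of a gene scaled to a common library total.

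The treatment labels and the names of the deposited data were opposite in all 12 pairs, and the data named with T carried the label untreated. Nfkbia, an early target of TNF signalling, was higher under the label untreated in 9 of 9 organoid cultures (5.34 to 6.99 times) and in 3 of 3 m-ICc12 cultures (3.17 to 7.81 times). Nfkb2, Relb and C3, which the study lists among known TNF targets, were likewise higher under the label untreated in all of these cultures. All of these genes went against the labels. The labels are followed here, and differences are given as labelled untreated minus labelled TNF. An exchange of the labels would turn the sign of these differences. Comparisons within 1 label, between culture types or between GF and SPF, would keep their values but belong to the other treatment. Those with MEF, which had no library labelled TNF, would then set the other treatment against the same MEF libraries. The organoid libraries held all 6 epithelial markers, at a summed 4937 to 5861 CPM. In m-ICc12 cells Krt8 and Krt18 were at 69.3% and 92.5% of the organoid level, whereas Epcam, Cdh1 and Cdx2 were at 0.484%, 0.243% and 0.206%. Vil1 was at 4.35%, with 33.1 CPM in m-ICc12 cells labelled untreated beside 1.27 CPM in MEF. The label of an epithelial line was therefore borne out by the keratins, in part by Vil1, and not by Epcam, Cdh1 and Cdx2. Of the fibroblast markers, Vim was at 2516 CPM in m-ICc12 cells labelled untreated, beside 2474 CPM in MEF. Col1a1, Col1a2, Col3a1, Pdgfra and Pdgfrb were at 0.820, 0.677, 0.0268, 0.0178 and 0.0484 CPM there. In MEF they were at 2082, 1638, 50.9, 0.787 and 85.7 CPM. Dcn was low in both (0.18 CPM in m-ICc12 cells labelled untreated, 0.076 CPM in MEF).

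The library of SR culture Z908 labelled untreated and the library of MEF culture R2 stood apart in liver transcripts. The albumin gene Alb had 16036 counts in the former and 2165 in the latter, against 0 to 742 in the other 25 libraries. Where a fit without these libraries was run, results that rest on them are given both ways.

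The sequence before the start of 4 members is shown, because Saa1 and Saa2 are near copies whose reads could be exchanged and because Saa3 and Lcn2 differed by label. The 250 bases before the start come from RefSeq (GRCm38.p6), 5′ to 3′ on the strand of the gene. Capitals mark matches to the C/EBP motif TTGCNNAA on either strand, the binding motif of a family of acute-phase transcription factors.
Saa1, chr7:46742981-46743230, minus strand: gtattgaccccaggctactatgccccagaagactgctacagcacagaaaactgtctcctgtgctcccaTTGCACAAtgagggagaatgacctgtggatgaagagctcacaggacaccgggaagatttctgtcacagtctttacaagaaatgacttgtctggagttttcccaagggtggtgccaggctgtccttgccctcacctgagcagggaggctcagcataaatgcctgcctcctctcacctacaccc
Saa2, chr7:46751583-46751832, plus strand: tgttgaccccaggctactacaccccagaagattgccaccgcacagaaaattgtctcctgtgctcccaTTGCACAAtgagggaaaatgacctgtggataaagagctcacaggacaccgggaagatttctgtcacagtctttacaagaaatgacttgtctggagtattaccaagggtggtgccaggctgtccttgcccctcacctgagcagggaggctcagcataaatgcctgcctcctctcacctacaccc
Saa3, chr7:46715677-46715926, minus strand: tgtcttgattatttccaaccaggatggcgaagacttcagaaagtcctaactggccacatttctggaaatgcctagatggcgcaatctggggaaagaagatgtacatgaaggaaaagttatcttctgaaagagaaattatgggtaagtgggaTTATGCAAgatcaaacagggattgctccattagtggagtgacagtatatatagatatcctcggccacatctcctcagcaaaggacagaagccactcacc
Lcn2, chr2:32387740-32387989, minus strand: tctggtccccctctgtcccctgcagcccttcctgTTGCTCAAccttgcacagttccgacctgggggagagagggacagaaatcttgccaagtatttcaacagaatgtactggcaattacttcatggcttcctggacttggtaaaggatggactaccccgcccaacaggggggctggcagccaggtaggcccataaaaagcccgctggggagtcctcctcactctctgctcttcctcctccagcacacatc
Over an alignment of these windows Saa1 and Saa2 were identical at 238 positions, with 11 mismatches and 2 gap positions (94.8%), and Saa1 and Saa3 were 52.2% identical. The C/EBP letters stood 182 to 175 bases before the start in Saa1, 183 to 176 in Saa2, 99 to 92 in Saa3, 216 to 209 in Lcn2 and 75 to 68 in Ltf. They were absent from the Pigr window, and 9.57% of 32841 mouse promoter windows of this length held them. The kappa-B consensus (7.25% of windows), the STAT letters TTCNNNGAA (7.02%) and the TATA letters TATAAA (12.4%) had no match in the 6 member windows searched, and none of these counts is a binding site. In the GENCODE transcripts, 230 of 2566 windows of 100 bases of Saa1 (8.96%) also occurred in another Saa gene, and for Saa3 this number was 0. The split between Saa1 and Saa2 is therefore uncertain to that extent.

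Pigr lies on chromosome 1 (GRCm38, 130826684 to 130852249, plus strand). In the 9 organoid libraries labelled untreated it had 2308 CPM at the lowest, 2719 at the median and 2970 at the highest, with a mean of 2643 ± 242 CPM (SD, n = 9). In the 9 labelled TNF it had 1622, 1970 and 2096 CPM, with a mean of 1952 ± 142 (SD, n = 9). The 2 ranges did not overlap. Within a culture the ratio was 1.23 to 1.50, and every culture was higher under the label untreated. The log2 difference was 0.44 ± 0.06 (SE; edgeR adjusted p = 7.29e-05), or 1.36-fold.

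**Figure D1:**
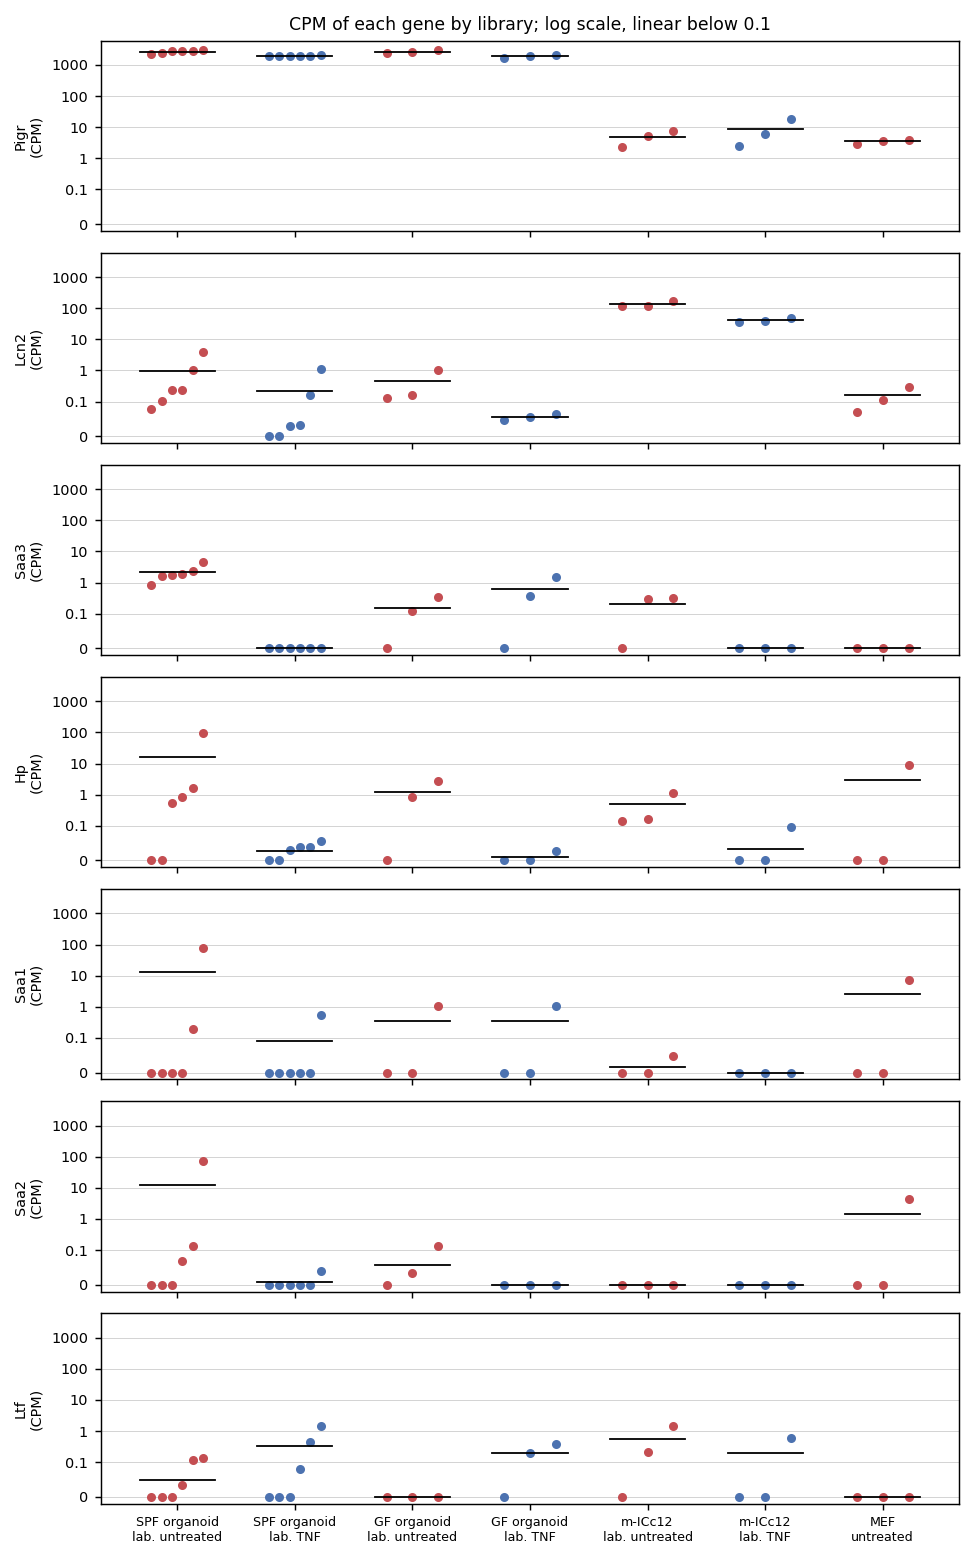
CPM of the 7 genes (vertical axes, log scale, linear below 0.1) in each of 27 libraries, by culture type and label; dots are libraries (red, labelled untreated; blue, labelled TNF) and black bars are group means. Pigr sat at 1622 CPM or more in every organoid library and at 17.8 CPM or less in every other library, while Lcn2 sat at 37.1 to 168 CPM in the 6 m-ICc12 libraries and at 3.97 CPM or less elsewhere.

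Among the 12104 genes tested between the labels in organoids, 168 (1.39%) had an adjusted p under 0.05, 153 of them higher under the label untreated, and the members called were Pigr and Hp. With the culture as a block 397 genes were called, Pigr and Hp among them. Only Pigr, Hp and Saa3 passed the filter (10 counts or more in 50% of the libraries with a label), and Hp and Saa3 passed it through the labelled-untreated libraries alone, so that their passing says nothing of the set. Lcn2, Saa1, Saa2 and Ltf were below it. Pigr did not pass the threshold when all 27 libraries shared 1 estimate of the spread (log2 0.44, adjusted p = 0.52).

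Per kilobase of exon, the mean level of Pigr in organoids labelled untreated was 657 CPM per kb. The other members followed at 7.25 CPM per kb for Hp, 3.55 for Saa1, 3.33 for Saa2, 0.577 for Saa3, 0.295 for Lcn2 and 0.00933 for Ltf. Without culture Z908 Hp was still second at 0.513 CPM per kb, and Saa1 and Saa2 stood after Saa3 and Lcn2 at 0.0636 and 0.0182. Fewer expressing cells and less RNA per cell cannot be told apart in these bulk libraries.

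In m-ICc12 cells Pigr had 5.16, 7.42 and 2.36 CPM in cultures M1, M2 and M3 under the label untreated and 17.8, 6.14 and 2.45 CPM under the label TNF. The labels overlapped (log2 -0.80 ± 0.65 SE, adjusted p = 1.00), and culture M1 alone gave the difference its sign. The MEF libraries had 2.87, 3.63 and 3.95 CPM. Pigr was higher in organoids than in m-ICc12 cells by 9.08 on the log2 scale under the label untreated (SE 0.34, adjusted p = 1.44e-12) and by 8.01 under the label TNF (SE 0.47, adjusted p = 1.04e-10). Against MEF the organoid level was higher by 9.60 (SE 0.19, adjusted p = 1.58e-15) and 9.14 (SE 0.16, adjusted p = 1.17e-16). Between m-ICc12 cells and MEF it differed by 0.46 under the label untreated (95% interval -0.56 to 1.49, adjusted p = 0.47). Under the label TNF the m-ICc12 level was higher by 1.31 (SE 0.67, adjusted p = 0.12). This difference passed the threshold without M3 (1.73, adjusted p = 0.032) and with all 27 libraries in 1 fit (1.15, adjusted p = 0.021). Without M1, whose library labelled TNF held the 17.8 CPM, it fell to 0.32 (adjusted p = 0.65 by edgeR). As a share of the organoid mean, Pigr stood at 0.152% in MEF. Some epithelial genes stood at like shares there, with Epcam at 0.145%, Cdh1 at 0.145% and the enterocyte gene Sis at 0.154%. Over the epithelial, Paneth, goblet, enterocyte and stem cell markers the shares ran from 0 (Mmp7, Defa17 and Clca1) to 2.12% (Fabp1). Muc2 stood at 0.0751% and Krt18 at 0.240%. The source of these low values was not tested.

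**Figure D2:**
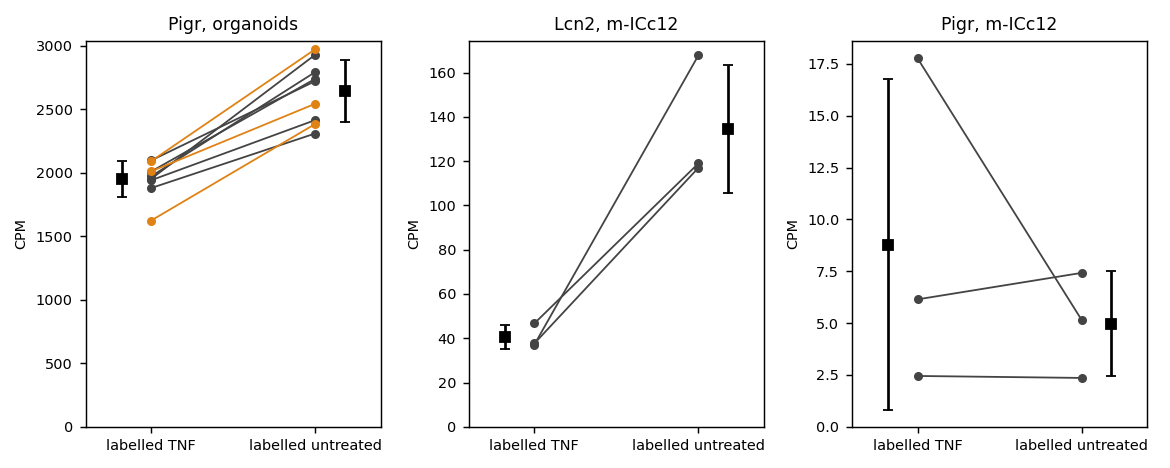
CPM of Pigr in organoids, Lcn2 in m-ICc12 cells and Pigr in m-ICc12 cells (vertical axes, from 0); lines join the 2 libraries of a culture (orange, GF; grey, SPF or m-ICc12) and squares with bars are means ± SD. All 9 Pigr lines in organoids and all 3 Lcn2 lines rose towards the label untreated, and the Pigr lines of m-ICc12 cells crossed.

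Lcn2 lies on chromosome 2 (32384633 to 32388252, minus strand). In m-ICc12 cells it had 117, 168 and 119 CPM in cultures M1, M2 and M3 under the label untreated and 37.6, 37.1 and 46.7 CPM under the label TNF. The 2 ranges did not overlap. The ratio within a culture was 3.11, 4.52 and 2.55, and the log2 difference was 1.72 ± 0.20 (SE, adjusted p = 4.99e-04). Lcn2 was the only member called among 13 genes called of 11861 tested in m-ICc12 cells (0.11%). It did not pass the threshold with all 27 libraries in 1 fit (log2 1.73, adjusted p = 0.84), and it did without each culture in turn (largest adjusted p = 3.53e-04).

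In organoids Lcn2 was near the floor. It had 2 to 104 counts per library under the label untreated (median 5) and 0 to 36 under the label TNF (median 1). The CPM was higher under the label untreated in 8 of 9 cultures, and culture Z909 went the other way with 3 and 36 counts. The highest library, labelled untreated, was that of SE culture Z911 at 3.97 CPM. Without a filter on low counts the log2 difference was 2.19 ± 1.11 (SE, adjusted p = 0.38). The MEF libraries had 3, 12 and 3 counts. Lcn2 was lower in organoids than in m-ICc12 cells, with log2 differences of -7.40 (SE 0.72, adjusted p = 1.57e-07) under the label untreated and -7.78 (SE 0.77, adjusted p = 1.07e-07) under the label TNF. It was higher in m-ICc12 cells than in MEF by 9.59 (SE 0.35, adjusted p = 1.21e-10) and 7.89 (SE 0.45, adjusted p = 1.84e-07). In all of these tests Lcn2 passed the filter only through the m-ICc12 libraries, where it is high. Between organoids and MEF it was not above the filter.

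The order of Lcn2 levels was thus m-ICc12 cells first, and organoids and MEF next with overlapping counts. Pigr had organoids first, and m-ICc12 cells and MEF next, with no difference that passed the threshold under either label apart from the alternatives given for the label TNF. The shares of genes called between culture types were high, so that a call there is common. They were 60.9% and 66.8% for organoids against m-ICc12 cells (label untreated, label TNF), 67.2% and 71.6% for organoids against MEF, and 59.3% and 55.6% for m-ICc12 cells against MEF. In these 6 comparisons the members called were Pigr and Lcn2, Pigr and Lcn2, Pigr and Saa3, Pigr, Lcn2, and Lcn2. Lcn2 and Saa3 passed the filter there only through the culture type in which they are high.

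Saa3 lies on chromosome 7 (46711998 to 46715700, minus strand) and was low throughout. In the 6 SPF cultures labelled untreated it had 122, 49 and 33 counts (SR) and 63, 26 and 42 counts (SE). In their 6 libraries labelled TNF it had 0 counts each, so that the 2 labels did not overlap. The SPF mean of 2.18 ± 1.26 CPM (SD, n = 6) was at least 16.8-fold higher than the floor of the libraries labelled TNF, and at least 12.4-fold without culture Z908. In the 3 GF cultures Saa3 had 4, 10 and 0 counts under the label untreated and 8, 46 and 0 under the label TNF. None of the GF cultures was higher under the label untreated.

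**Figure D3:**
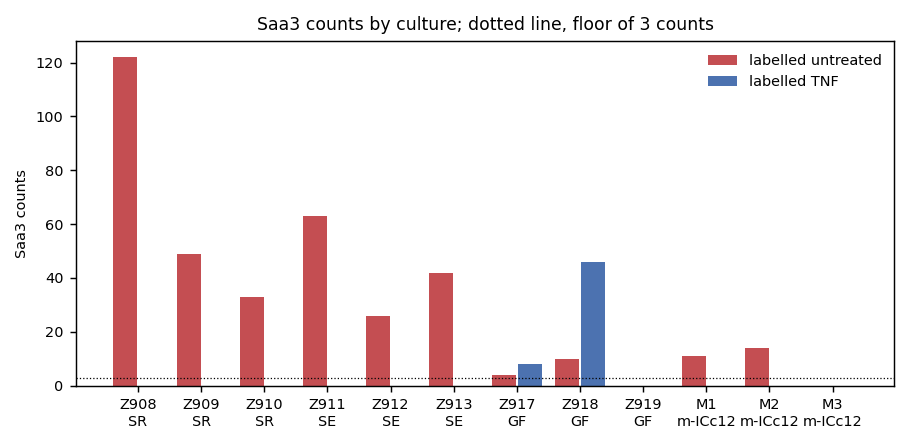
Saa3 counts (vertical axis) in the library labelled untreated (red) and the library labelled TNF (blue) of each organoid and m-ICc12 culture; the dotted line is the floor of 3 counts. All 6 SPF cultures showed a red bar of 26 to 122 counts and no blue bar, and GF culture Z918 showed its larger bar, 46 counts, under the label TNF.

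Over all 9 cultures the log2 difference of Saa3 was 2.83 ± 1.17 (SE, unadjusted p = 0.023 by edgeR, adjusted p = 0.42). It passed without GF culture Z918 (5.11, adjusted p = 0.049). The blocked fit gave 5.53 (adjusted p = 0.068). The difference of the label contrast between GF and SPF cultures was tested as an interaction in edgeR, in which 0 of 12640 genes were called (0.0%), 323 had an unadjusted p under 0.05, and DESeq2 called 1 gene, Saa3. Saa3 had an unadjusted p of 2.90e-04 and an adjusted p of 1.00 by edgeR, and an adjusted p of 0.00877 by DESeq2. With the culture as a block the unadjusted p was 0.0016. In each of these fits Saa3 passed the filter only through the SPF libraries labelled untreated, where it is high, so that these p-values give no separate support.

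In m-ICc12 cells Saa3 had 11, 14 and 0 counts in cultures M1, M2 and M3 under the label untreated and 0 in each library labelled TNF (adjusted p = 1.00). It was at 0 in the 3 MEF libraries. The organoid level under the label untreated was at least 17.2-fold above the MEF floor (adjusted p = 0.0029), and at least 12.9-fold without culture Z908. Here too Saa3 entered the test only through the organoid libraries, where it is high. Against MEF the m-ICc12 level was at least 2.40-fold above the floor (adjusted p = 0.055).

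Hp (chromosome 8, 109575128 to 109579172, minus strand) had 2637, 46 and 0 counts in SR cultures Z908, Z909 and Z910 labelled untreated. It had 22, 16 and 0 in the SE cultures and 27, 0 and 63 in the GF cultures. Under the label TNF all 9 libraries had 0 to 2 counts. The labels overlapped, because 3 libraries labelled untreated were at 0. The mean under the label untreated, 11.6 ± 32.5 CPM (SD, n = 9), was at least 95.5-fold above the floor (adjusted p = 0.0015). Without culture Z908 it was 0.824 ± 0.970 CPM (SD, n = 8), at least 6.52-fold above the floor (adjusted p = 0.040). In m-ICc12 cells the counts were 5, 52 and 7 under the label untreated and 0, 0 and 2 under the label TNF. The MEF libraries had 0, 346 and 0 counts.

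Saa1 (chromosome 7, 46740497 to 46742980, minus strand) and Saa2 (46751790 to 46754313, plus strand) were at or near 0 in most libraries. Saa1 had 2092 counts in the library of Z908 labelled untreated and 297 in that of MEF culture R2, against 0 to 24 in the other 25 libraries. Saa2 had 2015 and 172 counts in these 2 libraries and 0 to 4 in the others. In total, 6 of 9 organoid libraries labelled untreated had no Saa1 count. Leaving out Z908 took the mean of Saa1 under the label untreated from 8.80 to 0.158 CPM, beside 0.135 CPM under the label TNF (n = 8 each). It took Saa2 from 8.38 to 0.0457 CPM. Without a filter, Saa2 had an adjusted p of 0.0060 by edgeR between the labels in organoids, Saa1 of 0.12, and the sum of both of 0.045. All of these include Z908, and no such fit was run without it.

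The levels of Hp, Saa1 and Saa2 were highest in the 2 libraries with the most Alb counts. All 5 liver markers, which encode plasma proteins of hepatocytes, were present in Z908 labelled untreated at a summed 864 CPM, while the median of the 9 organoid libraries with this label was 30.9 CPM and their lowest 15.5 CPM. The highest sum in a MEF library was 72.9 CPM, in R2. Ttr, which organoids also expressed (25.3 CPM in the libraries labelled TNF), made up most of the sum in other organoid libraries. Per 100 counts of Alb there were 16.4 counts of Hp, 13.0 of Saa1, 12.6 of Saa2 and 17.8 of the fetuin gene Ahsg in Z908. In R2 there were 16.0, 13.7, 7.94 and 16.8. In the 3 other libraries above 500 Alb counts, Hp had 3.68 (Z917), 8.49 (Z919) and 9.52 (M2) per 100 Alb counts, all labelled untreated. Hp also occurred with few Alb counts, at 46 counts in Z909 (5 of Alb) and 22 in Z911 (2 of Alb). The part of liver RNA in these results was not tested.

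**Figure D4:**
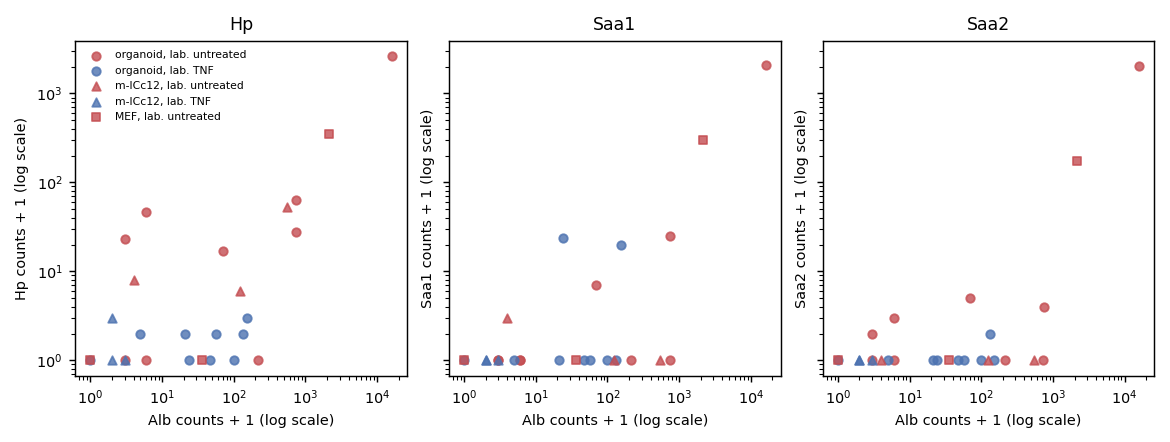
Counts of Hp, Saa1 and Saa2 plus 1 against counts of Alb plus 1 (both axes log scale) in 27 libraries, by culture type and label. The organoid library Z908 labelled untreated (16036 Alb counts) and the MEF library R2 (2165) lay highest in all 3 panels, and 2 organoid libraries held Hp with 2 and 5 Alb counts.

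Against MEF, Hp in organoids labelled untreated had a log2 difference of 2.03 ± 2.28 (SE, adjusted p = 0.45). It was -1.80 without Z908 (adjusted p = 0.35), 11.4 without R2 (adjusted p = 0.061) and 7.54 without both (adjusted p = 0.052), so that these libraries set its direction.

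Ltf (chromosome 9, 111019271 to 111042767, plus strand) was the rarest member in organoids labelled untreated, with 0 to 4 counts. Under the label TNF it had 0 to 39, with 39 in SE culture Z913, 14 in SE culture Z912, and 8 and 7 in the GF cultures Z917 and Z919. It was higher under the label TNF in 5 cultures, under the label untreated in 1 and at 0 in both libraries of 3. It was below the filter, and without one the log2 difference was -2.97 ± 1.37 (SE, adjusted p = 0.32). In m-ICc12 cells it had 0, 67 and 9 counts under the label untreated and 0, 22 and 0 under the label TNF, and MEF had 0 in each library.

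Neutrophils and macrophages also make several of these proteins, and their markers were looked at for that reason. The neutrophil genes Mpo, Elane, Ngp, Camp, Mmp8 and S100a8 were at 0 in all 18 organoid libraries. Cd177 (2.28 and 3.09 CPM by label) and Itgam (5.06 and 5.41 CPM) made up most of that list's summed 2.90 to 14.9 CPM. The 6 markers of other leukocytes, macrophages among them, summed to at most 0.382 CPM in organoids labelled TNF. Under the label untreated their sum had a median of 0.392 CPM and was highest in Z908, at 5.81 CPM. In m-ICc12 cells the macrophage receptor gene Csf1r was at 90.4 CPM under the label untreated and 118 CPM under the label TNF, whereas Adgre1 was at 0.

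Between GF and SPF organoids labelled untreated 4 of 12315 genes were called (0.0325%), none of them a member. Under the label TNF it was 4 of 12356 (0.0324%), again without a member. Pigr had 2631 ± 304 CPM (SD, n = 3) in GF and 2649 ± 238 (SD, n = 6) in SPF cultures labelled untreated, a log2 difference, GF minus SPF, of -0.01 (95% interval -0.24 to 0.22). Under the label TNF the means were 1907 ± 250 and 1974 ± 73.3 CPM (-0.05, 95% interval -0.24 to 0.13). The label contrast of Pigr differed between GF and SPF by 0.04 (95% interval -0.24 to 0.33). Saa3 was lower in GF under the label untreated, at 0.152 against 2.18 CPM (log2 -3.78 ± 1.40 SE, unadjusted p = 0.015 and adjusted p = 1.00 by edgeR). It entered that test only through the SPF libraries, where it is high. It was on the other side under the label TNF, at 0.617 CPM in GF and 0 in all 6 SPF libraries, at least 4.78-fold above their floor, and it was below the filter there (without one, unadjusted p = 0.0043 and adjusted p = 0.91 by edgeR). Hp had -3.82 ± 1.99 (SE, adjusted p = 1.00) and 1.02 without Z908. With the libraries of a culture summed over both labels, Lcn2 had -1.32 ± 1.34 and Saa3 -1.49 ± 1.16 (SE, adjusted p = 1.00 each).

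The label contrasts of organoids and m-ICc12 cells were compared as an interaction, in which 21 of 13183 genes were called (0.159%). None was a member. Pigr differed by 1.06 ± 0.42 (SE, unadjusted p = 0.018 and adjusted p = 0.61 by edgeR), by 0.29 without M1 and by 1.66 without M2. With the culture as a block 103 genes were called, and Pigr had an adjusted p of 0.13. Lcn2 differed by 0.35 (95% interval -1.81 to 2.51), so that the call in m-ICc12 cells and the lack of one in organoids do not show that the contrasts differ.

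Other genes of the same pathways were counted beside the members. Of 28 other acute-phase genes, 9 were tested in organoids, and 3 were called, all higher under the label untreated. C3, the central complement component, had 66.0 ± 69.6 CPM under the label untreated and 0.534 ± 0.359 under the label TNF (SD, n = 9). It was higher in 9 of 9 cultures (log2 7.05 ± 0.49 SE, adjusted p = 1.52e-10). Hpx, the haem carrier hemopexin, had a log2 difference of 7.42 (adjusted p = 0.0067), and 4.64 (adjusted p = 0.14) without Z908. Its highest value under the label untreated was 208 CPM, beside a median of 0.440 CPM, and its median under the label TNF was 0.0375 CPM. Hpx thus passed the filter only through the libraries labelled untreated, where it is high. Cd14, the lipopolysaccharide co-receptor, was higher by 1.29 (adjusted p = 0.022), and by 1.18 (adjusted p = 0.080) without Z908. The median log2 difference of the 9 tested genes was 1.29, beside 0.00 for all genes. That median includes Hpx and was not taken without Z908.

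Of 24 other mucosal defence genes, 16 were tested in organoids and 4 were called. Reg3g, a C-type lectin against Gram-positive bacteria, had 87.8 ± 19.2 and 24.4 ± 10.5 CPM by label (untreated, TNF; SD, n = 9; log2 1.85, adjusted p = 6.40e-07). The peptidoglycan recognition gene Pglyrp1 was higher under the label untreated by 1.03 (adjusted p = 1.56e-05), and so was the nitric oxide synthase gene Nos2 by 2.77 (adjusted p = 1.14e-04), each in 9 of 9 cultures. Dmbt1, a mucosal scavenger receptor protein, was lower under the label untreated in 9 of 9 cultures, with 33.8 ± 17.7 and 94.3 ± 42.0 CPM (SD, n = 9; log2 -1.47, adjusted p = 0.0044). The median of the 16 was 0.34.

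Of 23 regulators, 20 were tested in organoids and 4 were called, all higher under the label untreated. They were the NF-kappa-B subunits Nfkb2 (1.79, adjusted p = 1.30e-11) and Relb (1.49, adjusted p = 2.92e-08), the interferon regulatory factor Irf1 (1.39, adjusted p = 1.10e-05), and Il6st, the shared receptor subunit of the IL-6 family (0.44, adjusted p = 0.012). None of 6 receptors and partners of the members and none of 12 genes of iron handling was called. The medians of these 3 lists were 0.07, 0.11 and 0.03. In m-ICc12 cells C3 (2.13, adjusted p = 4.78e-05), Relb (1.89, adjusted p = 0.0094) and Nfkb2 (1.09, adjusted p = 0.016) were called, 1 of 16 acute-phase genes and 2 of 22 regulators. No gene of the other 3 lists was called there, of 6, 10 and 10 tested. The label contrast of C3 was larger in organoids than in m-ICc12 cells (difference 4.91, adjusted p = 0.0031), the only listed gene called in that interaction. None of these lists had a gene called between GF and SPF.

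The genes nearest to each member in their pattern were found by Pearson's r of log2 CPM, as a description over libraries that share culture and label. Over the 18 organoid libraries Pigr was nearest to Nfkbia (0.900), C3 (0.895) and Nfkb2 (0.892). Hp was nearest to Fga (0.848), Mat1a (0.824) and Ahsg (0.824), and Saa3 to Stard5 (0.826), Acbd4 (0.792) and Zfand2b (0.751). These 18 libraries include Z908 labelled untreated, and the correlations were not taken without it. Over all 27 libraries Lcn2 was nearest to Klhdc10 (0.945), D630011A20Rik (0.944) and Pawr (0.943), and Ltf to Gsdma (0.734), Kcnj5 (0.566) and Mybph (0.557). Saa1 and Saa2 had too few libraries with 10 counts for this measure.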

How the data were processed

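RNA of 27 libraries was sequenced as single-end reads. The authors removed adapters, trimmed the reads, aligned them with STAR to GRCm38 (Ensembl release 91) and counted them per gene. The deposited values used here are raw counts of 22524 genes, the same in every library. The submitters' processing notes name bcl2fastq 2.19, Trimmomatic, STAR 2.5.4b, featureCounts and edgeR, while the study's methods name GenomicRanges for counting. The use of strand and of reads with several alignments is not given in the sources used here.

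The 7 members, the gene lists and the rules were chosen with earlier results of these data known. Conditions were taken from the sample labels. CPM used TMM factors over all 27 libraries. Each comparison held only its own groups, with a filter that kept genes with 10 counts or more in 50% of a group's libraries, TMM normalization and edgeR's quasi-likelihood F-test without covariates, and p-values were adjusted by Benjamini-Hochberg over all genes tested (threshold 0.05). Differences between contrasts were tested as interactions. The SE of an edgeR difference was derived as its absolute value over the square root of the F statistic, and is rough for genes near 0 counts. Intervals of 95% are normal intervals from this SE and do not widen for few libraries. Lower bounds of a fold set the floor of 3 counts per library in place of the lower group, and cover counting error only. Genes named beside the members were the called genes of each list, at most 5 per list and contrast by p, and the 3 nearest genes by correlation (log2 CPM, prior count 2). Pla2g2a, Tf and Cebpd matched no gene of the tables. Nothing in the labels says that the m-ICc12 or MEF libraries came from separate thaws, so that p-values there measure the spread between these samples.

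The 2 libraries of an organoid culture share a mouse. Their deviations from the label mean had a mean correlation of 0.171 (0.0821 to 0.311, 9 pairs). Fits were run in R 4.3.3 (edgeR 4.0.16, DESeq2 1.42.0) and tested on simulated data, and tables were made in Python 3.11.15 (pandas 2.3.3, Biopython 1.88). Alternatives were DESeq2 with its size factors, no filter on low counts, all 27 libraries in 1 fit, a block for the culture, a covariate for the facility, Saa1 and Saa2 summed, GF against SR or SE alone, and each culture left out in turn. A fit without Z908 and R2 together and the sum of Saa1 and Saa2 without a filter were added after the data were seen.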

Additional observations from a re-analysis of the deposited data

Results flagged for a closer look

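Among 27 sets of 6 or 9 organoid libraries of a member and label, 16 held a library far from the others by Dixon's test at 95%, which chance flags in about 1 in 20 sets of normally distributed values. Under the label untreated, culture Z908 stood apart for Saa1 (77.9 CPM), Saa2 (75.1 CPM) and Hp (98.2 CPM), over all 9 cultures and over the 6 SPF cultures, and culture Z911 stood apart for Lcn2 (3.97 CPM) in both. Under the label TNF, culture Z909 stood apart for Lcn2 (1.09 CPM) and culture Z913 for Ltf (1.46 CPM), in both sets. Over the 9 cultures labelled TNF, Z917 stood apart for Saa1 (1.08 CPM), Z918 for Saa3 (1.48 CPM) and Z917, on the low side, for Pigr (1622 CPM). Over the 6 SPF cultures labelled TNF, Z908 stood apart for Saa1 (0.541 CPM). Most of these sets hold libraries at 0.

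The label contrast differed between groups of cultures at an unadjusted p under 0.05 for 2 members, and neither passed the adjustment by edgeR. Saa3 differed between GF and SPF organoids by -10.8 on the log2 scale (unadjusted p = 2.90e-04, adjusted p = 1.00), with 6 of 6 SPF cultures and 0 of 3 GF cultures higher under the label untreated. Since all SPF libraries labelled TNF were at 0, the size of that value depends on the prior count. Saa3 also passed the filter only through the SPF libraries labelled untreated, so that its p-value gives no separate support. Pigr differed between organoids and m-ICc12 cells by 1.06 (unadjusted p = 0.018, adjusted p = 0.61; 0.29 to 1.66 without 1 culture, 0.29 without M1), with 9 of 9 and 1 of 3 cultures higher under the label untreated.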

How the results depend on the processing

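Of 429 values of single members under alternatives, 407 kept their direction and their side of the threshold, 5 passed it, 2 no longer passed it and 15 changed sign. With all 27 libraries in 1 fit, 1 member was called between the labels in organoids and 0 in m-ICc12 cells, 2 between organoids and MEF under the label TNF, and 3 and 3 between m-ICc12 cells and MEF (label untreated, label TNF). Over all genes, that fit called 139, 29, 9346, 6560 and 6723 of 14132 in these comparisons, in the same order. Without a filter it was 4, 4 and 2 in these last 3 comparisons, in which Hp, Saa1 or Saa2 of MEF R2 or Ltf were added. Over all genes, 9850 of 15906, 7543 of 15240 and 6899 of 15111 were called there. DESeq2 called 1 member, Saa3, between the label contrasts of GF and SPF, where it passed the filter only through the SPF libraries labelled untreated. Leaving out 1 culture gave 1 to 4 members for organoids against MEF under the label TNF (4 without R1 and 4 without R3), 1 to 3 for m-ICc12 cells against MEF under the label untreated (3 without R1 or R3, 2 without M1), and 1 to 4 under the label TNF (4 without R1, 2 without R3 or M3). Over all genes, these fits called 8927 to 9641 of 13242 to 13696, 6431 to 7132 of 13112 to 13346, and 5700 to 7362 of 12806 to 13194. A call of any gene was thus common there.

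Counts over all genes moved more. The block gave 397 calls in organoids, 6 in m-ICc12 cells, where the culture numbers are not shown to pair libraries (mean correlation 0.0311 over 3 pairs), and 103 in their interaction, and it changed no call of a member. In m-ICc12 cells there were 46 calls with DESeq2, 30 without a filter (30 also with Saa1 and Saa2 summed), 29 with all libraries and 15 to 93 without 1 culture (93 without M2). In the interaction of organoids and m-ICc12 cells there were 72 with DESeq2, 6 with all libraries and 11 to 40 without 1 culture (11 without M2, 40 without M3). Between GF and SPF labelled untreated there were 21 with DESeq2, 29 with all libraries and 2 to 5 without 1 culture (2 without Z917, Z918 or Z919), under the label TNF 10 with DESeq2, and between their label contrasts 1 with DESeq2.

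Signs that turned belonged to values that passed no threshold. Pigr between the labels in m-ICc12 cells ranged from -1.43 to 0.18 without 1 culture (0.18 without M1). Pigr between GF and SPF labelled untreated was 0.0011 with all libraries, 0.089 against SE only and -0.11 to 0.051 without 1 culture (0.0049 without Z909, 0.03 without Z910, 0.051 without Z917, 0.01 without Z919), and -0.12 to 0.043 without 1 culture under the label TNF (0.043 without Z917). Hp was -0.13 against MEF with all libraries and -1.80 to 11.4 without 1 culture (-1.80 without Z908), 1.41 for GF against SE only labelled untreated and -5.29 to 1.02 without 1 culture (1.02 without Z908), and -2.99 to 1.89 between the label contrasts of GF and SPF (1.89 without Z908). Between the label contrasts of organoids and m-ICc12 cells, Lcn2 was -0.74 to 2.27 without 1 culture (-0.74 without Z911) and Saa3 was 0.27 with the block. The causes were not tested. Saa1, Saa2 and Ltf had 3 counts or fewer in most organoid libraries, where smaller differences were not detectable at this depth.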
